A study of Mus musculus with 9 samples.

Results

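The cell cycle and proliferation genes described here are 53 genes, matched by gene name in the deposited gene table, in which 27945 genes had a count. They were sorted by role into 15 genes of the first gap phase (G1), 16 genes of DNA synthesis and 22 genes of mitosis. All 53 had a count and all 53 passed the filter on low counts, which kept 18113 genes. RNA was measured by sequencing of polyadenylated RNA in 9 mouse liver libraries, 3 labelled treated, 3 model and 3 control. The series title names liver damage by gefitinib, a drug that blocks signalling by the receptor of epidermal growth factor. The labels do not say what the treated libraries received, nor the dose, time, sex, strain or age in any of the 3 groups, and samples are called both liver and liver cells. Whether the libraries within a group are different animals is not stated either, and a p-value here refers to library-to-library spread, which may be partly technical.

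A cell that is to divide passes through G1, copies its DNA and then separates the copies in mitosis. D-type cyclins with their kinases and cyclin E with CDK2 relieve the hold that the retinoblastoma protein keeps on E2F transcription factors, which drive the genes of DNA synthesis. The genes of mitosis are switched on later and are bound through other promoter elements. Hepatocytes of an adult liver rarely divide, and they re-enter the cycle after loss of tissue or injury, which is why cyclin D1 and the mitotic cyclins are common readouts in liver.

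The libraries held 56440871 to 60665156 estimated counts each, over 20579 to 21441 genes. Scores on the leading principal component (28.7% of variance) were 76.6 to 96.5 for treated, -20 to -7.46 for model and -87.6 to -63.9 for control libraries. Hepatocyte markers were abundant in all 9 libraries, with the 8 listed genes summing to 64527 to 79657 CPM, counts scaled to library size, in treated, 83208 to 86625 in model and 82556 to 94002 in control libraries. Skeletal muscle markers were present in 4 libraries. The 9 of them summed to 133 to 177 CPM in treated libraries, to 203, 1.03 and 0.997 CPM in model replicates 1 to 3, and to 0.626 to 1.38 CPM in control libraries. Macrophage markers, 12 genes, summed to 738, 848 and 974 CPM in treated, 389, 464 and 352 CPM in model and 318, 250 and 386 CPM in control libraries. Endothelial markers, 10 genes, summed to 65.1, 88.6 and 96.2 CPM in treated, 133, 127 and 117 CPM in model and 302, 297 and 356 CPM in control libraries, with no overlap between groups. Stellate cell markers, 10 genes, summed to 231 to 260 CPM in treated, 191 to 211 CPM in model and 256 to 320 CPM in control libraries. Erythroid and myeloid precursor markers, 13 genes, summed to 115 to 143 CPM in treated, 454, 280 and 232 CPM in model and 210 to 282 CPM in control libraries. Neutrophil markers, 9 genes, summed to 29.2, 11.2 and 151 CPM in treated, 13.7, 27.3 and 25.6 CPM in model and 3.54, 6.31 and 3.86 CPM in control libraries.

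In treated compared with control livers, 22 of the 53 genes rose and 3 fell. A gene was called when its adjusted p was under 0.05 in edgeR's quasi-likelihood test with Benjamini-Hochberg adjustment over all 18113 genes, and by that rule 9.36% of all genes were higher and 8.47% lower. Mitosis genes made up 12 of the 22 that rose, DNA synthesis genes 7 and G1 genes 3. The median log2 fold change of the 53 genes was 1.34, against -0.01 over all genes tested. In treated compared with model livers 7 rose and 2 fell, with 5.21% of all genes higher and 4.44% lower, and a median log2 fold change of 0.91 against 0.01 over all genes. In model compared with control livers 2 rose and none fell, with 0.519% of all genes higher and 0.596% lower, and a median of 0.43 against -0.00. By the same test 2526 of the 18113 genes were under an unadjusted p of 0.05 in that last comparison, among them 13 members higher and 2 lower, and DESeq2 called 8 members higher and 2 lower. The 3 comparisons use the same 9 libraries in pairs of groups, so their results are not independent of each other.

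In all, 26 of the 53 genes were called in at least 1 comparison and 27 in none. By the same rule, 10 of the 10 endothelial markers fell in treated versus control, 5 in treated versus model and 7 in model versus control. Macrophage markers rose for 4, 3 and 2 of 12 in those comparisons, and 4 of the 8 neutrophil markers tested rose in treated versus control. Of 8 hepatocyte markers, 3 fell and none rose in treated versus control, and 1 rose and 1 fell in treated versus model. Of 10 stellate cell markers, 3 fell and 1 rose in treated versus control, and 1 rose in treated versus model. Of 12 erythroid and myeloid precursor markers tested, 2 rose and 1 fell in treated versus control. Markers of lymphocytes and cholangiocytes were not called in any comparison. The part of these cell types in the results for the 53 genes was not tested. RNA of a whole sample cannot tell a change in the share of dividing cells, or of any cell type, from a change of RNA per cell. The scaling of the libraries moved the counts over all genes. With library totals alone in place of TMM, the median log2 fold change of all genes moved to 0.20 in treated versus control and 0.17 in treated versus model. Calls then split 78.7% higher in treated versus control and 80.1% in treated versus model, against 52.5% and 53.9% with TMM. Members called higher went from 22 to 30 in treated versus control and from 7 to 10 in treated versus model.

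**Figure D1:**
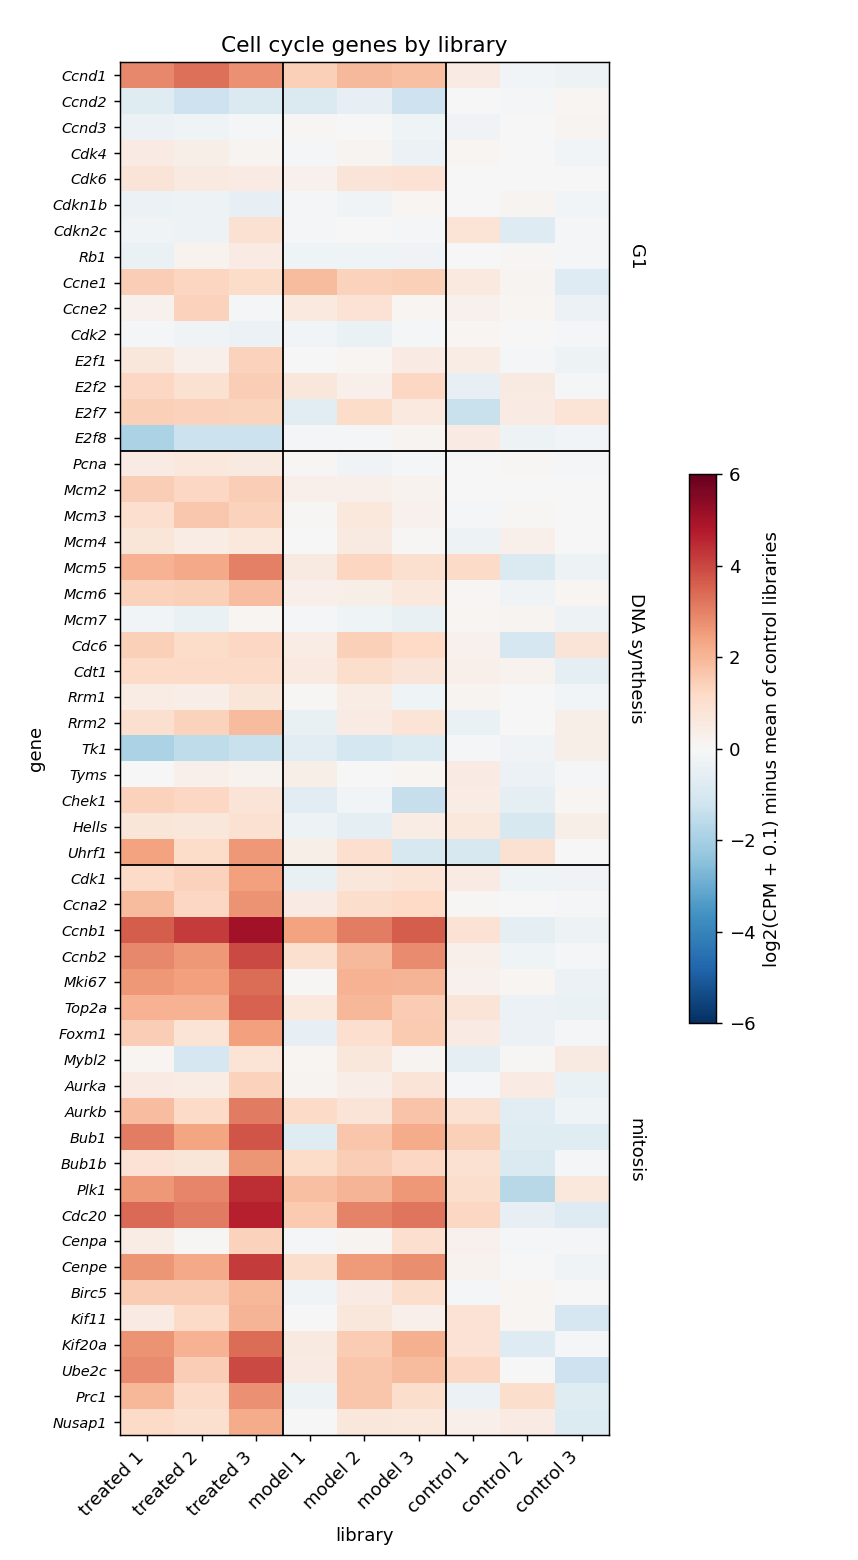
Each row is 1 of the 53 genes and each column 1 of the 9 libraries. Colour gives log2(CPM + 0.1) minus the mean of the 3 control libraries on that scale, red for higher and blue for lower. The mitosis block is reddest in treated replicate 3, and the G1 and DNA synthesis blocks hold the rows that are bluest in treated libraries (Ccnd2, E2f8 and Tk1).

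The heat map of all 53 genes shows the groups that the rest of the text follows. Levels are comparable between genes only per length, and the deposited FPKM values (fragments scaled by gene length and library size) give that order. Cdk4, a G1 kinase, was the most abundant, at a mean of 14.4 FPKM over 9 libraries, followed by its cyclin Ccnd1 at 6.45 FPKM, Pcna at 4.73 FPKM and the kinase inhibitor Cdkn1b at 4.19 FPKM. Cdc6 at 0.0474 FPKM and E2f7 at 0.0568 FPKM were the least abundant. Group means reached at least 1 FPKM for 12 of 22 mitosis genes in treated, 4 in model and 0 in control libraries. For the 16 DNA synthesis genes that number was 8 in treated, 4 in model and 3 in control, and for the 15 G1 genes it was 9 in treated, 9 in model and 8 in control.

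Promoter windows are shown to set the elements named above beside the genes of each role. In the RefSeq promoter table for GRCm38.p6, 44 of the 53 genes had a window of 250 bases before to 50 bases after the start site, among 27025 genes with one. An E2F-type element was searched as TTTCCCGC, TTTGGCGC or TTTCGCGC, the cell cycle homology region as TTTGAA and the CCAAT box as CCAAT, each on both strands. E2F-type letters were in 8 of 15 DNA synthesis promoters (53.3%), 3 of 11 G1 promoters (27.3%) and 1 of 18 mitosis promoters (5.56%), against 2.12% of all genes. TTTGAA was in 12 of 18 mitosis promoters (66.7%), 2 of 11 G1 promoters (18.2%) and 1 of 15 DNA synthesis promoters (6.67%), against 20.2% of all genes. CCAAT was in 15 of 18 mitosis promoters (83.3%), 7 of 11 G1 promoters (63.6%) and 9 of 15 DNA synthesis promoters (60.0%), against 41.1% of all genes, and every mitosis promoter with TTTGAA also held CCAAT. These matches are descriptions of letters in the windows and not of binding. The 5 windows below, all on the minus strand, are those of a DNA synthesis gene that rose, the 2 B-type cyclins, and the 2 genes with the smallest p among those that fell, with matched letters in capitals. On the opposite strand a CCAAT box reads ATTGG. There the homology region reads TTCAAA, and the E2F-type letters TTTCGCGC read GCGCGAAA.
Mcm6: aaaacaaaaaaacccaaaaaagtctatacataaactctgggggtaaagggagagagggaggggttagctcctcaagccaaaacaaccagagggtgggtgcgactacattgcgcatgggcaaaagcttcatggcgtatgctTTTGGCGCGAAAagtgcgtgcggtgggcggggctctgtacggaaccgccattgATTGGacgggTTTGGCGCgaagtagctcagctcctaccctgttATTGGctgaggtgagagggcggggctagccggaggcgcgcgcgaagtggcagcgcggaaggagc
Ccnb1: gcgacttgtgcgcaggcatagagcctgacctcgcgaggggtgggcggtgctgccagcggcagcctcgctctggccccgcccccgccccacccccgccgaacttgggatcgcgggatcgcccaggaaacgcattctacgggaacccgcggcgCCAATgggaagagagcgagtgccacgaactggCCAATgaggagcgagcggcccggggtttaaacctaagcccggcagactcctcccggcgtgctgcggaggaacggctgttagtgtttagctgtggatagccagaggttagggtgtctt
Ccnb2: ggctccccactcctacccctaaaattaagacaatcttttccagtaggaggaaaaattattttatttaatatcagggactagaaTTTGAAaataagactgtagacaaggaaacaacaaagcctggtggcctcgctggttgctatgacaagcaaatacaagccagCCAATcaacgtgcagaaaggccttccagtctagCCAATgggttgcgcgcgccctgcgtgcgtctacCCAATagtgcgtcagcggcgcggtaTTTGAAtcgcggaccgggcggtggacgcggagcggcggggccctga
E2f8: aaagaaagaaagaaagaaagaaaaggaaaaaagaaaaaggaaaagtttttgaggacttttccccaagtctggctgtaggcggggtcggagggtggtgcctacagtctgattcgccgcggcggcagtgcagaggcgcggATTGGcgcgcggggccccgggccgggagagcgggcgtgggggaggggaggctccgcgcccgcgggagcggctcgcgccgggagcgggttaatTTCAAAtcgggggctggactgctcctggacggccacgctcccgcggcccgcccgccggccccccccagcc
Tk1: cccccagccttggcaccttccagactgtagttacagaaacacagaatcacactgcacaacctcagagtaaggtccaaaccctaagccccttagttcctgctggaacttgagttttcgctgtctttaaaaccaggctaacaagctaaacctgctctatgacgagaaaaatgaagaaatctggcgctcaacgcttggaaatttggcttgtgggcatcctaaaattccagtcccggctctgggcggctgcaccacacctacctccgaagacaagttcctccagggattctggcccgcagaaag

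The Mcm6 window (chr1:128359656-128359955, minus strand) holds 3 E2F-type matches that begin 110, 106 and 47 bases before the start site, the first and second of which overlap, and 2 CCAAT boxes. That of Ccnb1 (chr13:100786437-100786736, minus strand) holds 2 CCAAT boxes, 99 and 67 bases before the start, and no TTTGAA. That of Ccnb2 (chr9:70421505-70421804, minus strand) holds 3 CCAAT boxes, 87, 54 and 21 bases before the start, and TTTGAA both 167 bases before the start and just after it. The E2f8 window (chr7:48881547-48881846, minus strand) holds 1 TTTGAA and 1 CCAAT box, 20 and 112 bases before the start, and the Tk1 window (chr11:117825965-117826264, minus strand) holds none of the letters searched.

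Of the 15 G1 genes, Ccnd1, Cdk6 and Ccne1 were higher in treated than in control livers, Ccnd2 and E2f8 were lower, and 10 did not pass the test. The median log2 fold change of the 15 was 0.33. In treated compared with model livers Ccnd1 rose and E2f8 fell, with a median of 0.10, and in model compared with control livers Ccnd1 rose alone, with a median of -0.04. Ccnd1 was thus the one G1 gene called in each of the 3 comparisons. In treated versus control 3 of the 15 rose and 2 (13.3%) fell, against 9.36% and 8.47% of all genes. The 1 that rose and the 1 that fell in treated versus model were 6.67% each. Of all genes, 5.21% rose and 4.44% fell there, so these G1 shares were close to those of all genes. In model versus control the share that rose was 6.67%, or 1 gene, against 0.519% of all genes.

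Ccnd1, cyclin D1, which couples growth factor signals to the G1 kinases, had 58.2, 79.1 and 52.8 CPM in treated, 21.6, 30.9 and 28.2 CPM in model and 11.2, 6.92 and 6.27 CPM in control libraries. The 3 groups did not overlap, with treated libraries highest and control libraries lowest. The rise was 7.80-fold in treated versus control (log2 2.96, SE 0.26, adjusted p = 0.000116), 2.36-fold in treated versus model (log2 1.24, SE 0.24, adjusted p = 0.0127) and 3.31-fold in model versus control (log2 1.73, SE 0.25, adjusted p = 0.0152). Its call in model versus control was lost when control or model replicate 2 or 3 was left out, with a highest adjusted p of 0.0642, and that in treated versus model without model replicate 1 (adjusted p = 0.052). Ccnd1 shares 1100 exonic bases, 23.4% of its own, with LTO1 on the opposite strand, and LTO1 moved by 0.07 on the log2 scale in treated versus control (adjusted p = 0.831).

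The other D-type cyclins did not follow Ccnd1. Ccnd2, cyclin D2, had 3.67, 2.5 and 3.34 CPM in treated, 3.39, 4.35 and 2.54 CPM in model and 6.02, 5.73 and 6.77 CPM in control libraries. Treated and model libraries overlapped and all 6 lay below the control libraries. The log2 fold change was -0.96 in treated versus control (SE 0.25, adjusted p = 0.0238) and -0.85 in model versus control (SE 0.25, adjusted p = 0.15). The first was not called without control replicate 1 or 3 or treated replicate 2 or 3, nor on library totals alone or with the replicate number as a block, with a highest adjusted p of 0.0819. Ccnd3, cyclin D3, averaged 37.2 ± 3.97 CPM in treated, 42.4 ± 5.03 CPM in model and 43.7 ± 5.23 CPM in control libraries (SD, n = 3 each), and the groups overlapped. Per length, Ccnd1 averaged 13.0 FPKM in treated, 4.90 in model and 1.44 in control libraries, and Ccnd3 averaged 4.09 FPKM in treated, 4.13 in model and 4.11 in control libraries.

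The kinases that D-type cyclins bind changed less. Cdk6 had 29.0, 24.0 and 23.2 CPM in treated, 19.8, 28.3 and 30.0 CPM in model and 16.4, 16.5 and 17.1 CPM in control libraries. Treated and model libraries overlapped, and all 6 were above the control libraries. Cdk6 was 1.52-fold higher in treated than in control livers (log2 0.61, SE 0.16, adjusted p = 0.0214) and its log2 fold change in model versus control was 0.64 (SE 0.16, adjusted p = 0.081). Without treated replicate 1, or without any 1 of the 3 control libraries, the treated versus control call was lost (highest adjusted p = 0.0833). Cdk4 had 67.9, 61.3 and 55.2 CPM in treated, 47.0, 55.4 and 38.8 CPM in model and 53.4, 49.6 and 43.7 CPM in control libraries. Treated libraries were all above control libraries but overlapped model libraries, and the log2 fold change in treated versus control was 0.33 (SE 0.14, adjusted p = 0.129). Cdk4 shares 19.7% of its exonic bases with Tspan31 on the opposite strand, which averaged 243 CPM against 52.5 CPM for Cdk4. How reads of these neighbours were divided is not known, which also limits the FPKM rank of Cdk4. Protein-coding transcripts held 41.2% of Cdk4 counts in model replicate 1, 42.7% in model replicate 3 and 41.3% in control replicate 3. In the other libraries they held 74.3 to 84.4%.

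Cyclin E1 and E2F8 moved in opposite directions in treated versus control livers. Ccne1, which partners CDK2 late in G1, had 2.79, 2.4 and 2.12 CPM in treated, 3.76, 2.60 and 2.61 CPM in model and 1.45, 1.04 and 0.504 CPM in control libraries. Both other groups lay above the control libraries and overlapped each other. Ccne1 was 2.44-fold higher in treated than in control livers (log2 1.29, SE 0.38, adjusted p = 0.04), and its log2 fold change in model versus control was larger at 1.58 (SE 0.39) with an adjusted p of 0.081. The treated versus control call was lost in 9 of 17 alternatives, among them the fit to the 2 groups alone and the omission of control replicate 2 or 3 or of any 1 model or treated library, with a highest adjusted p of 0.113.

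E2f8, an atypical E2F that represses E2F target genes, had 4.77, 7.35 and 7.32 CPM in treated, 16.7, 16.6 and 19.9 CPM in model and 24.9, 14.4 and 15.9 CPM in control libraries. All treated libraries were below all others, and model and control libraries overlapped. It was 2.84-fold lower in treated than in control (log2 -1.51, SE 0.23, adjusted p = 0.00145) and 2.74-fold lower than in model livers (log2 -1.45, SE 0.23, adjusted p = 0.0035), and both calls held in all 17 alternatives. E2f8 shares 610 exonic bases, 11.2% of its own, with Gm2788 on the opposite strand, which averaged 63.5 CPM and was also lower in treated livers (log2 -1.62, adjusted p = 0.000954 against control). The strand setting of the counting is not known here, so reads of these neighbours cannot be told apart. Within the same family, E2f7, the other atypical member, had 0.924, 0.916 and 0.881 CPM in treated, 0.144, 0.733 and 0.472 CPM in model and 0.0536, 0.442 and 0.578 CPM in control libraries, and did not pass the test (log2 1.34 in treated versus control, SE 0.79, adjusted p = 0.283). The activating E2f1 and E2f2 had log2 fold changes of 0.87 (SE 0.35, adjusted p = 0.118) and 1.26 (SE 0.41, adjusted p = 0.0571) in treated versus control.

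The 3 brakes of G1 among the 15 genes, Cdkn1b, Rb1 and Cdkn2c, did not pass the test in any comparison. Cdkn1b, the inhibitor p27, averaged 18.4 ± 1.32 CPM in treated, 22.8 ± 2.72 CPM in model and 24.1 ± 2.81 CPM in control libraries (SD, n = 3 each). Every treated library lay below every other library, with a log2 fold change of -0.39 in treated versus control (SE 0.13, adjusted p = 0.0594). Rb1, the retinoblastoma protein, averaged 11.0 ± 3.22 CPM in treated, 8.51 ± 0.181 CPM in model and 9.96 ± 0.738 CPM in control libraries. Cdkn2c, an inhibitor of CDK4 and CDK6, had an adjusted p of 0.911 in treated versus control, and Cdk2 one of 0.311. Ccne2, cyclin E2, had one of 0.344.

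**Figure D2:**
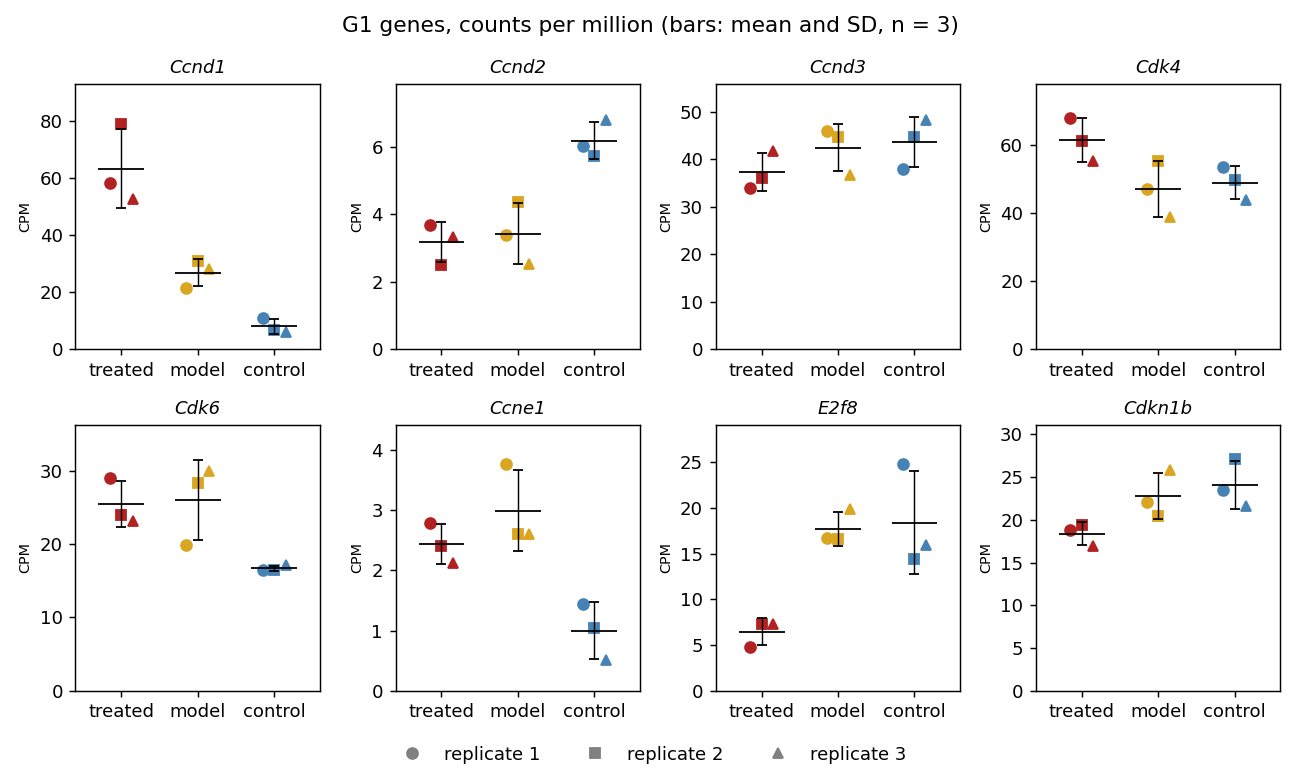
CPM of 8 G1 genes in each library, by group; symbols mark the replicate number, horizontal lines the mean and vertical bars the SD of 3 libraries. Ccnd1 separates the 3 groups, E2f8 separates treated libraries from the rest, and Ccnd2, Cdk6 and Ccne1 separate control libraries from the rest.

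The plot of G1 genes by group shows these 3 kinds of pattern side by side. The 15 genes together summed to 254, 270 and 247 CPM in treated, 213, 235 and 220 CPM in model and 216, 201 and 193 CPM in control libraries. Treated sums were above all others, and model and control sums overlapped. Without Ccnd1, the other 14 genes summed to 196, 190 and 194 CPM in treated, 191, 204 and 192 CPM in model and 204, 194 and 187 CPM in control libraries, with overlap of all 3 groups.

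Of the 16 DNA synthesis genes, 7 rose and 1 fell in treated versus control livers, 5 rose and 1 fell in treated versus model livers, and none was called in model versus control livers. Those that rose in treated versus control were Pcna, 4 subunits of the MCM helicase, its loading factor Cdt1 and the ribonucleotide reductase subunit Rrm2, and the one that fell was Tk1. The median log2 fold change of the 16 was 1.16 in treated versus control, 0.78 in treated versus model and 0.19 in model versus control. The shares that rose were 43.75% in treated versus control and 31.25% in treated versus model, against 9.36% and 5.21% of all genes. The share that fell was 6.25% in both, against 8.47% and 4.44% of all genes. At an unadjusted p under 0.05 edgeR put 2 of the 16 (Mcm6 and Cdt1) higher and 1 (Tk1) lower in model versus control, and DESeq2 called Tk1 lower there.

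The MCM genes encode the 6 subunits of the helicase ring that unwinds DNA at replication forks. Mcm2 had 4.34, 3.70 and 4.33 CPM in treated, 1.87, 1.85 and 1.75 CPM in model and 1.48, 1.5 and 1.47 CPM in control libraries. The 3 groups did not overlap, and model libraries were closer to control than to treated libraries. Mcm2 was 2.77-fold higher in treated than in control (log2 1.47, SE 0.24, adjusted p = 0.00212) and 2.26-fold higher than in model livers (log2 1.18, SE 0.24, adjusted p = 0.0122). Mcm6 had 11.4, 11.9 and 15.8 CPM in treated, 5.31, 5.43 and 6.67 CPM in model and 4.47, 3.73 and 4.74 CPM in control libraries. Its groups did not overlap either, in the same order. Mcm6, whose window above holds the E2F-type letters, was 3.02-fold higher in treated than in control (log2 1.59, SE 0.19, adjusted p = 0.0004) and 2.24-fold higher than in model livers (log2 1.17, SE 0.19, adjusted p = 0.00415).

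Mcm3 had 5.44, 8.25 and 7.16 CPM in treated, 2.76, 4.13 and 3.20 CPM in model and 2.52, 2.81 and 2.63 CPM in control libraries. Treated libraries were above all others, while model and control libraries overlapped. The log2 fold change was 1.39 against control (SE 0.24, adjusted p = 0.00291) and 1.05 against model (SE 0.24, adjusted p = 0.0209), the second of which was not called without model replicate 1 or 3 or treated replicate 2 or 3 (highest adjusted p = 0.0841). Mcm5 had 2.64, 3.05 and 5.08 CPM in treated, 0.847, 1.45 and 1.15 CPM in model and 1.34, 0.25 and 0.429 CPM in control libraries. Treated libraries were again above all others, and control replicate 1 lay within the model libraries. Mcm5 was 5.31-fold higher in treated than in control livers (log2 2.41, SE 0.57, adjusted p = 0.0145), with adjusted p up to 0.0534 without control replicate 3 or treated replicate 3, and its log2 fold change against model was 1.64 (SE 0.55, adjusted p = 0.0897). The remaining 2 subunits did not pass. Mcm4 had a log2 fold change of 0.61 (SE 0.27, adjusted p = 0.148) in treated versus control. Mcm7 had 17.3, 14.6 and 21.2 CPM in treated, 18.2, 16.0 and 14.1 CPM in model and 21.2, 21.9 and 15.4 CPM in control libraries, with overlap of all groups and a log2 fold change of -0.14 (SE 0.18, adjusted p = 0.655) in treated versus control.

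Pcna, the sliding clamp of DNA polymerases, had 15.9, 17.3 and 16.4 CPM in treated, 11.8, 9.57 and 10.1 CPM in model and 11.3, 11.7 and 10.4 CPM in control libraries. Treated libraries were above all others, and model and control libraries overlapped. Pcna was 1.48-fold higher in treated than in control (log2 0.57, SE 0.13, adjusted p = 0.0122) and 1.58-fold higher than in model livers (log2 0.66, SE 0.13, adjusted p = 0.0109), and both calls held in all 17 alternatives. A copy, Pcna-ps2, averaged 5.76 CPM in treated, 3.35 CPM in model and 3.49 CPM in control libraries. How reads shared with it were divided is not given in the sources used here. Cdt1, which loads the helicase onto DNA, had 4.55, 4.51 and 4.50 CPM in treated, 3.04, 4.28 and 3.45 CPM in model and 2.5, 2.31 and 1.34 CPM in control libraries. The groups did not overlap, and the treated libraries differed among themselves by little. Cdt1 was 2.20-fold higher in treated than in control livers (log2 1.14, SE 0.28, adjusted p = 0.0166), while its log2 fold change against model was 0.33 (SE 0.27, adjusted p = 0.519).

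Enzymes that supply deoxynucleotides went separate ways. Rrm2, the regulated subunit of ribonucleotide reductase, had 2.76, 3.77 and 5.30 CPM in treated, 0.991, 1.95 and 2.52 CPM in model and 1.02, 1.38 and 1.79 CPM in control libraries. All treated libraries exceeded the rest, and model and control libraries overlapped. Rrm2 was 2.82-fold higher in treated than in control livers (log2 1.5, SE 0.40, adjusted p = 0.026), a call lost without control replicate 1 or 2 or treated replicate 2 or 3 (highest adjusted p = 0.0961). Its partner Rrm1 averaged 10.1 ± 1.34 CPM in treated, 7.46 ± 1.81 CPM in model and 6.95 ± 0.739 CPM in control libraries (SD, n = 3 each; log2 0.53 in treated versus control, adjusted p = 0.0948). Tyms, thymidylate synthase, which makes thymidylate anew, averaged 6.43 ± 0.602 CPM in treated, 6.35 ± 0.721 CPM in model and 5.83 ± 1.93 CPM in control libraries.

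Tk1, thymidine kinase, which recovers thymidine by salvage, had 8.84, 11.4 and 13.1 CPM in treated, 20.6, 15.6 and 18.7 CPM in model and 30.1, 28.6 and 41.3 CPM in control libraries. The groups did not overlap, and their order was the reverse of that of Mcm2 and Mcm6. Tk1 was 2.99-fold lower in treated than in control livers (log2 -1.58, SE 0.19, adjusted p = 0.000353), which held in all 17 alternatives, and 1.64-fold lower than in model livers (log2 -0.71, SE 0.19, adjusted p = 0.036). The second call was lost in 5 alternatives, on library totals alone and without model replicate 1 or 3 or treated replicate 1 or 2 (highest adjusted p = 0.13). In model versus control the log2 fold change was -0.87 (SE 0.19, adjusted p = 0.0544). Tk1 shares 83 exonic bases, 1.60% of its own, with Afmid on the opposite strand, which was lower as well (log2 -1.10, adjusted p = 0.0102 in treated versus control). Afmid averaged 97.1 CPM against 20.9 CPM for Tk1, and how reads of these neighbours were divided is not known here.

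The checkpoint kinase and the chromatin factors of replication were at low counts. Chek1, which halts the cycle when replication stalls, had 2.26, 2.00 and 1.43 CPM in treated, 0.486, 0.716 and 0.245 CPM in model and 1.14, 0.5 and 0.877 CPM in control libraries. The treated group lay wholly above the others, and model libraries overlapped control libraries at the low end. Chek1 was 3.92-fold higher in treated than in model livers (log2 1.97, SE 0.49, adjusted p = 0.0309), with 376 counts in the treated and 84 in the model libraries together, and its log2 fold change against control was 1.17 (SE 0.48, adjusted p = 0.12). The call against model was lost without model replicate 1 or 3 or treated replicate 1 or 2 and with the replicate block (highest adjusted p = 0.1). Uhrf1, which maintains DNA methylation after replication, had a log2 fold change of 2.30 (SE 0.85, adjusted p = 0.0867) in treated versus control, Hells, a chromatin remodeller, one of 0.67 (SE 0.46, adjusted p = 0.367), and Cdc6, a loading factor with 21 counts in all control libraries, one of 1.58 (SE 1.03, adjusted p = 0.333).

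**Figure D3:**
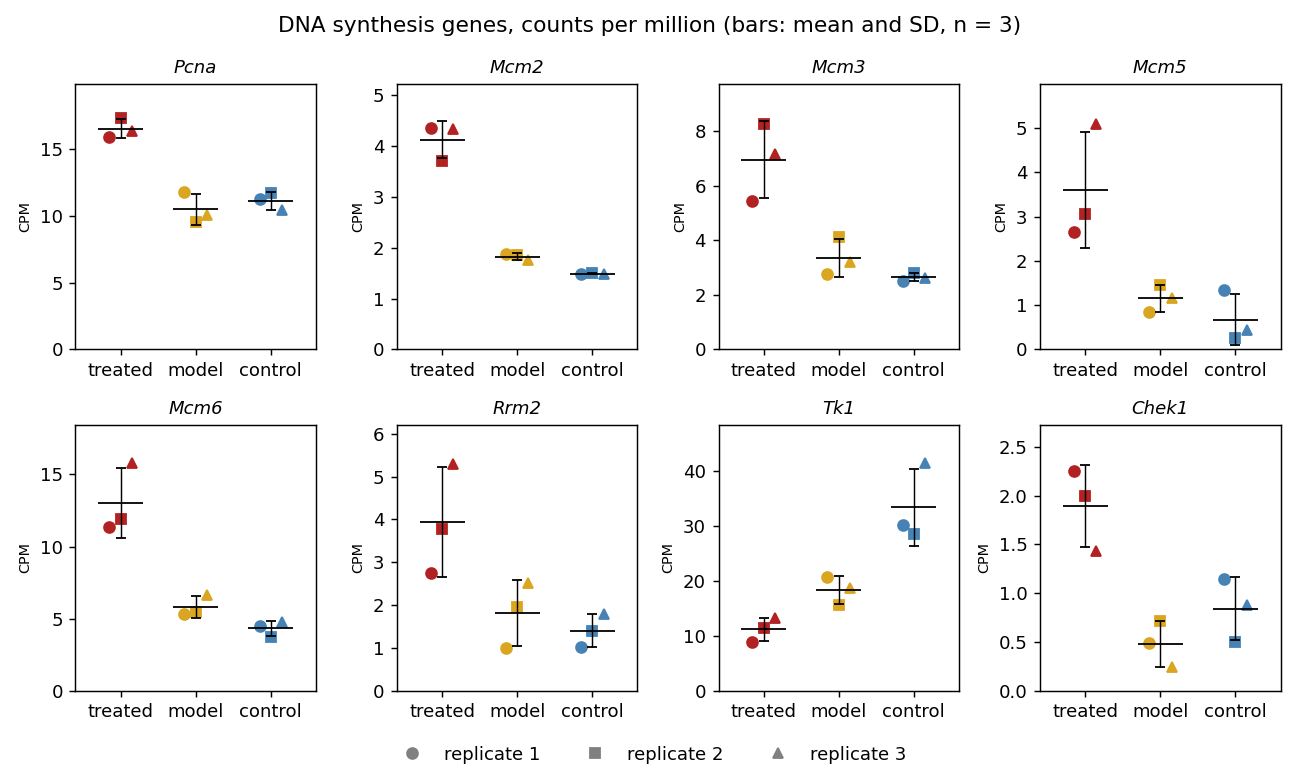
CPM of 8 DNA synthesis genes in each library, by group; symbols mark the replicate number, horizontal lines the mean and vertical bars the SD of 3 libraries. Treated libraries are above all model and control libraries for Pcna, Mcm2, Mcm3, Mcm5, Mcm6, Rrm2 and Chek1, and below them for Tk1.

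As the plot of DNA synthesis genes shows, the gap lies mainly between treated libraries and the other two groups. In treated versus model, 10 of the 16 genes had treated libraries all above model libraries, against 16.2% of all genes, and in treated versus control 13 of 16, against 19.3% of all genes. In model versus control that number was 3 of 16, against 9.71% of all genes. The 16 genes summed to 99.0, 103 and 121 CPM in treated, 84.0, 81.2 and 78.4 CPM in model and 96.7, 89.8 and 96.1 CPM in control libraries. Treated sums were above all others, and model sums were below the control sums. Without Tk1, the other 15 genes summed to 90.1, 91.1 and 108 CPM in treated, 63.5, 65.6 and 59.8 CPM in model and 66.6, 61.3 and 54.8 CPM in control libraries, so that model and control sums overlapped.

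Of the 22 mitosis genes, 12 rose in treated versus control livers, 1 in treated versus model and 1 in model versus control, and none fell in any comparison. These were 54.5%, 4.55% and 4.55% of the 22, against 9.36%, 5.21% and 0.519% of all genes higher. By edgeR, the numbers at an unadjusted p under 0.05 were 19, 9 and 8 higher in those comparisons and none lower. Of all 18113 genes, 5721, 4368 and 2526 were under that p in either direction. DESeq2 called 16, 4 and 5 of the 22 higher and none lower, with 2230, 1428 and 450 of all genes higher. The median log2 fold change was 2.25 in treated versus control, 1.16 in treated versus model and 1.24 in model versus control. Fitted log2 fold changes against control were above 0 for all 22 genes in both comparisons with control, which share the control libraries. The levels were low, with a median over the 22 genes of 1.32 FPKM in treated, 0.487 FPKM in model and 0.166 FPKM in control libraries. In treated versus control, 17 of the 22 had treated libraries all above control libraries, against 19.3% of all genes.

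Within groups the libraries were unequal. Treated replicate 3 was the highest of all 9 libraries for each of the 22 genes, and model replicate 1 was the lowest of its group for 21 of them. The 22 genes summed to 89.7, 75.3 and 188 CPM in treated, 32.9, 62.3 and 77.3 CPM in model and 34.6, 26.4 and 22.3 CPM in control libraries. The sums of treated and model libraries overlapped, and so did those of model and control libraries. Treated replicate 3 was also the library with the highest sum of neutrophil and of macrophage markers, and model replicate 1 the model library with 203 CPM of skeletal muscle markers. Without treated replicate 3, 9 of the 22 genes were called higher in treated versus control, against 1265 of 18840 genes. Without model replicate 1 the number called higher in model versus control was 3, against 63 of 18859 genes.

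The cyclins of mitosis and the kinase they activate were each called in treated versus control. Ccnb1, cyclin B1, had 3.49, 5.16 and 9.41 CPM in treated, 1.42, 2.33 and 3.52 CPM in model and 0.429, 0.0961 and 0.131 CPM in control libraries. Control libraries were below all others, and model replicate 3 overlapped the treated libraries. Ccnb1 was 27.1-fold higher in treated than in control livers (log2 4.76, SE 0.64, adjusted p = 0.000814) and 10.9-fold higher in model than in control livers (log2 3.45, SE 0.61, adjusted p = 0.0306), on 36 counts in the control libraries together. The call in model versus control was lost with limma-voom, with the replicate block and when control or model replicate 2 or 3 was left out, with a highest adjusted p of 0.238. Against model, the log2 fold change of treated livers was 1.31 (SE 0.53, adjusted p = 0.161). Ccnb2, cyclin B2, had 5.22, 4.29 and 11.2 CPM in treated, 1.33, 2.70 and 5.14 CPM in model and 0.804, 0.519 and 0.597 CPM in control libraries. The pattern was the same, with overlap only between treated libraries and model replicate 3. The pseudogene Ccnb1-ps averaged 0.244 CPM in treated, 0.304 CPM in model and 0.0252 CPM in control libraries. Ccnb2-ps averaged 0.659 CPM in treated, 0.637 CPM in model and 0.609 CPM in control libraries. The control means of the cyclins themselves were 0.219 CPM for Ccnb1 and 0.640 CPM for Ccnb2, and how shared reads were divided is not known here. Ccnb2 was 10.8-fold higher in treated than in control livers (log2 3.43, SE 0.54, adjusted p = 0.0021), and its log2 fold change in model versus control was 2.25 (SE 0.53, adjusted p = 0.0784).

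Ccna2, cyclin A2, which acts from DNA synthesis to early mitosis, had 6.18, 3.86 and 10.6 CPM in treated, 2.25, 3.31 and 3.73 CPM in model and 1.64, 1.56 and 1.47 CPM in control libraries. The 3 groups did not overlap, although treated replicate 2 was close to model replicate 3. Ccna2 was 4.42-fold higher in treated than in control livers (log2 2.14, SE 0.36, adjusted p = 0.00254), with a log2 fold change of 1.15 against model (SE 0.35, adjusted p = 0.0631). It shares 12.5% of its exonic bases with Exosc9 on the opposite strand. Cdk1, the kinase that these cyclins activate, had 4.61, 5.51 and 11.8 CPM in treated, 1.44, 3.35 and 3.62 CPM in model and 2.93, 1.65 and 1.72 CPM in control libraries. Every treated library exceeded every other, and model and control libraries overlapped. Cdk1 was 3.47-fold higher in treated than in control livers (log2 1.79, SE 0.45, adjusted p = 0.0195), which was lost without control replicate 2 or 3 or treated replicate 3 (highest adjusted p = 0.0784).

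Mki67, the proliferation marker Ki-67, had 11.5, 10.2 and 18.7 CPM in treated, 1.89, 7.79 and 7.63 CPM in model and 2.13, 1.92 and 1.36 CPM in control libraries. No other library reached the treated ones, and model replicate 1 lay among the control libraries while model replicates 2 and 3 lay between the groups. Mki67 was 7.45-fold higher in treated than in control livers (log2 2.90, SE 0.51, adjusted p = 0.00524), which held in all 17 alternatives. In model versus control its log2 fold change was 1.68 (SE 0.50, adjusted p = 0.168), and it was called there by DESeq2 and without model replicate 1, with a lowest adjusted p of 0.00753. Top2a, the topoisomerase that untangles chromosomes, had 4.02, 4.09 and 11.1 CPM in treated, 1.40, 3.80 and 2.68 CPM in model and 1.55, 0.673 and 0.634 CPM in control libraries. The 3 treated libraries were the highest, and model and control libraries overlapped. Its log2 fold change in treated versus control was 2.74 (SE 0.56, adjusted p = 0.00797), or 6.69-fold.

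Kinases and checkpoint proteins of mitosis were at lower counts. Plk1, polo-like kinase 1, had 1.83, 2.35 and 6.74 CPM in treated, 1.03, 1.20 and 1.82 CPM in model and 0.554, 0 and 0.392 CPM in control libraries. The groups did not overlap, and treated replicate 1 and model replicate 3 were nearly equal. Its log2 fold change in treated versus control was 3.51 (SE 0.98, adjusted p = 0.0382), and the call was lost in 12 of 17 alternatives, among them the omission of any 1 library other than control replicate 2, with a highest adjusted p of 0.111. Aurkb, Aurora kinase B of the chromosomal passenger complex, had 1.48, 0.855 and 3.59 CPM in treated, 0.865, 0.633 and 1.29 CPM in model and 0.715, 0.173 and 0.261 CPM in control libraries. Treated libraries were above control libraries and overlapped model libraries. The log2 fold change in treated versus control was 2.36 (SE 0.67, adjusted p = 0.0329), lost in 6 alternatives, which were limma-voom, the fit to the 2 groups alone, and the omission of control replicate 2 or 3 or treated replicate 1 or 3 (highest adjusted p = 0.148). Birc5, survivin, of the same complex, had 4.71, 4.77 and 6.63 CPM in treated, 1.37, 2.30 and 3.41 CPM in model and 1.45, 1.71 and 1.60 CPM in control libraries. Both other groups lay below the treated libraries, and model replicate 1 was below the control libraries. Birc5 was 3.38-fold higher in treated than in control (log2 1.76, SE 0.34, adjusted p = 0.00484) and 2.27-fold higher than in model livers (log2 1.18, SE 0.33, adjusted p = 0.0457). The first held in all 17 alternatives, and the second was lost in 9, namely the fit to the 2 groups alone and the omission of any 1 library other than model replicate 3 (highest adjusted p = 0.147).

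Cdc20, which activates the anaphase-promoting complex, had 7.23, 6.03 and 18.0 CPM in treated, 2.02, 5.38 and 6.37 CPM in model and 1.55, 0.404 and 0.317 CPM in control libraries. Control libraries were below all others, and treated and model libraries overlapped. Cdc20 was 13.7-fold higher in treated than in control livers (log2 3.77, SE 0.78, adjusted p = 0.0138), and the call was lost without control replicate 2 alone (adjusted p = 0.0571). It had the highest mean FPKM of the mitosis genes, at 5.34 in treated, 2.12 in model and 0.334 in control libraries. Cenpe, a kinetochore motor, had 1.88, 1.44 and 5.60 CPM in treated, 0.558, 1.76 and 2.10 CPM in model and 0.268, 0.212 and 0.168 CPM in control libraries. Control libraries were again below all others. The log2 fold change in treated versus control was 3.77 (SE 0.67, adjusted p = 0.00328), lost with limma-voom alone (adjusted p = 0.0768), and in model versus control it was 2.76 (SE 0.65, adjusted p = 0.0773). Kif20a, a kinesin of the late spindle, had 6.81, 4.52 and 10.9 CPM in treated, 1.48, 3.03 and 4.65 CPM in model and 1.86, 0.519 and 0.914 CPM in control libraries. Treated libraries were above control libraries, and model libraries overlapped both. Its log2 fold change in treated versus control was 2.75 (SE 0.57, adjusted p = 0.00905), and Cdc23, which shares 29.3% of the exonic bases of Kif20a on the opposite strand, had one of -0.15 (adjusted p = 0.556).

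The 10 mitosis genes that were not called in treated versus control had log2 fold changes between 0.11 for Mybl2 (SE 0.53, adjusted p = 0.928) and 3.57 for Bub1 (SE 1.60, adjusted p = 0.164). Ube2c, a ubiquitin-conjugating enzyme of the anaphase-promoting complex, had one of 2.88 (adjusted p = 0.0512), and 22.8% of its exonic bases lie in the skeletal muscle gene Tnnc2 on the opposite strand, which had no count in control libraries. Nusap1 had 1.54 (adjusted p = 0.0513), Foxm1, a transcription factor of mitotic genes, 1.80 (adjusted p = 0.0571), Prc1 1.99 (adjusted p = 0.0689) and the checkpoint kinase Bub1b 1.69 (adjusted p = 0.108). Aurka, Aurora kinase A, had 4.08, 3.94 and 7.43 CPM in treated, 3.15, 3.81 and 4.86 CPM in model and 2.57, 4.08 and 2.15 CPM in control libraries, with overlap of all groups and a log2 fold change of 0.81 (adjusted p = 0.121). The kinesin Kif11 had 1.27 (adjusted p = 0.149), and Cenpa, the centromeric histone, 0.74 (adjusted p = 0.207).

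**Figure D4:**
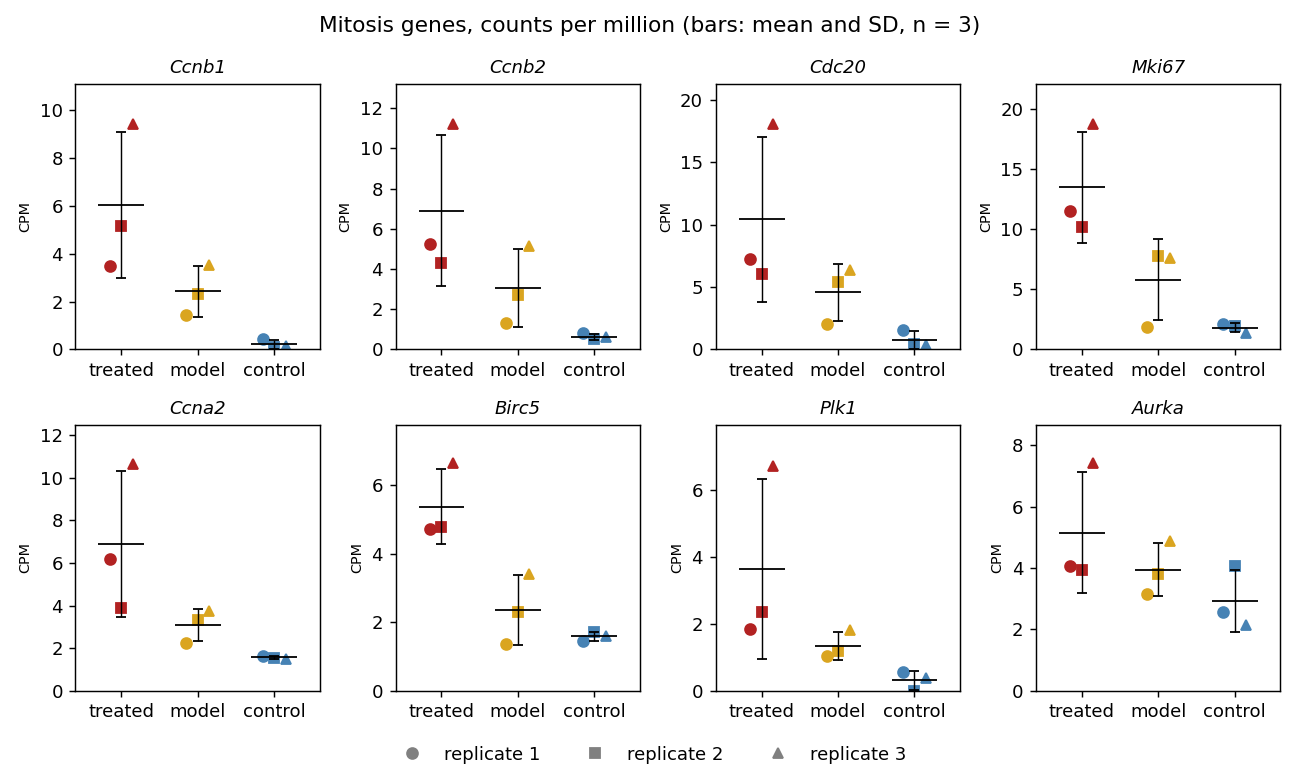
CPM of 8 mitosis genes in each library, by group; symbols mark the replicate number, horizontal lines the mean and vertical bars the SD of 3 libraries. Treated replicate 3 (triangle) is the highest library in every panel, and model replicate 1 (circle) is the lowest model library in every panel.

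The plot of mitosis genes by group shows the spread within treated and model libraries. Folds and errors of all 53 genes are set side by side in the plot of fitted log2 fold changes.

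**Figure D5:**
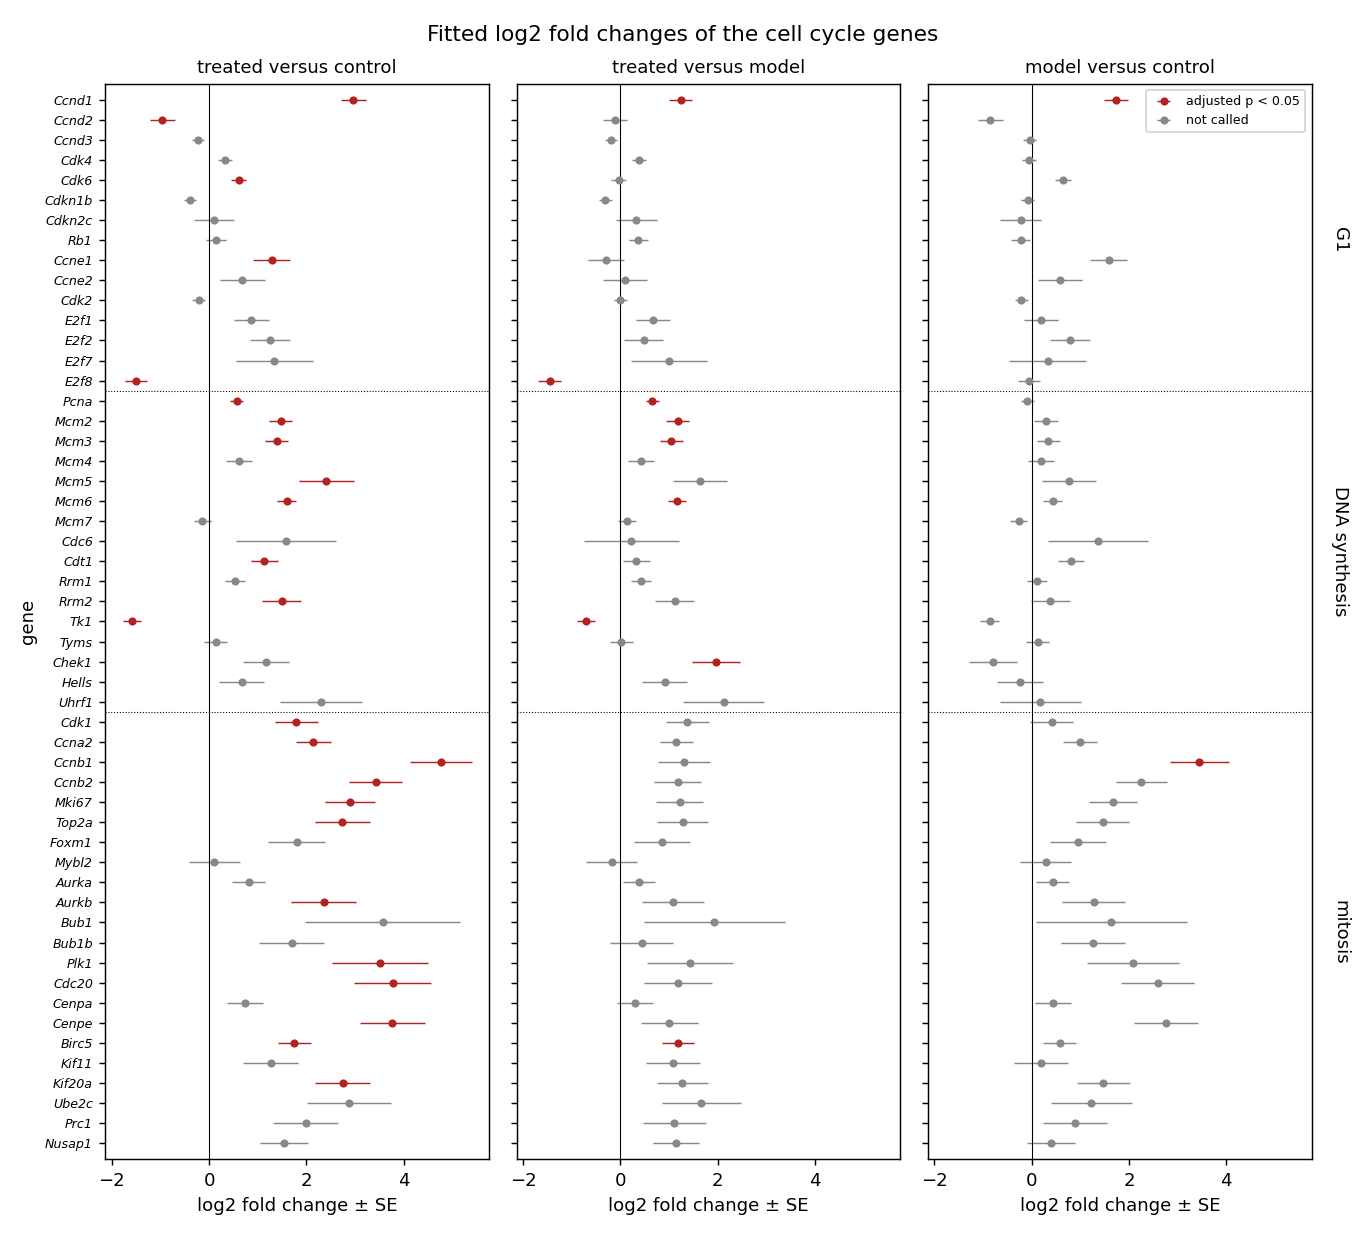
Fitted log2 fold change (point) and SE (bar) of each of the 53 genes in treated versus control, treated versus model and model versus control, red where the adjusted p is under 0.05. Mitosis genes lie to the right of 0 in treated versus control, with the widest bar for Bub1, and E2f8 and Tk1 are the red points left of 0 in treated versus model.

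Other genes of the cycle were listed by the same roles, and 93 of 94 were tested. In treated versus control 29 rose (31.2%) and 1 fell (1.08%), against 9.36% and 8.47% of all genes. In treated versus model 8 rose (8.60%) and 1 fell (1.08%), against 5.21% and 4.44% of all genes. Those 8 were 6 G1 genes, 1 DNA synthesis gene (3.33% of its list) and 1 mitosis gene (2.27% of its list). In model versus control 1 rose and 1 fell (1.08% each), against 0.519% and 0.596% of all genes. By role, 6 of 19 G1 genes, 5 of 30 DNA synthesis genes and 18 of 44 mitosis genes rose in treated versus control, where Rbl2 fell. Cdkn1a, the kinase inhibitor p21, had 113, 104 and 179 CPM in treated, 8.99, 9.69 and 8.0 CPM in model and 24.7, 39.9 and 74.3 CPM in control libraries. The groups did not overlap, and model libraries were the lowest. Cdkn1a was 14.9-fold higher in treated than in model (log2 3.89, SE 0.44, adjusted p = 0.00249) and 2.85-fold higher than in control livers (log2 1.51, SE 0.40, adjusted p = 0.0388), and its log2 fold change in model versus control was -2.38 (SE 0.41, adjusted p = 0.0505). Cdkn1c, the inhibitor p57, rose 3.73-fold in treated versus model (log2 1.90, SE 0.32, adjusted p = 0.00509), and Rbl1, a relative of Rb1, rose 2.62-fold in treated versus control (log2 1.39, SE 0.30, adjusted p = 0.00936). Ccng2, a cyclin linked to arrest, fell in model versus control (log2 -0.76, SE 0.16, adjusted p = 0.0484) and rose in treated versus model (log2 0.61, SE 0.16, adjusted p = 0.0338).

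Among the other mitosis genes, Tpx2, a spindle assembly factor, had 4.44, 3.30 and 12.2 CPM in treated, 1.10, 1.40 and 2.34 CPM in model and 1.04, 0.654 and 0.616 CPM in control libraries. The groups did not overlap and treated replicate 3 was again the highest. It was 8.60-fold higher in treated than in control (log2 3.10, SE 0.53, adjusted p = 0.00272) and 4.10-fold higher than in model livers (log2 2.04, SE 0.50, adjusted p = 0.0289). Sgo1, which protects sister chromatid cohesion, had 70, 57 and 117 counts in treated and 7, 22 and 34 counts in model libraries, and no count in control libraries. Against a floor of 3 counts per control library it was at least 22.4-fold higher in treated and at least 6.50-fold higher in model livers, with adjusted p of 0.00132 and 0.0323. Of the other DNA synthesis genes, Dbf4, the activating partner of the CDC7 kinase, rose 4.49-fold in treated versus control (log2 2.17, SE 0.44, adjusted p = 0.0069), and the chromatin assembly subunit Chaf1b 2.98-fold (log2 1.58, SE 0.38, adjusted p = 0.015).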

How the data were processed

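The authors deposited estimated counts and FPKM per gene and per transcript for 9 libraries, per the file headers. The submitters' processing notes name HISAT2, with no version. How reads were assigned to genes, and on which strand, is not given in the sources used here. Deposited counts are whole numbers, and in at least 99.9975% of transcripts per library they equalled FPKM times length times 1 constant of that library, within 1 count. That relation follows from the definition of FPKM, so it does not show how the counts were made. They are called estimated here because 99.9932% of gene counts equalled the sum of the counts of their transcripts. GENCODE M21 (GRCm38) held 27859 of the 27945 gene IDs that had counts, 25083 of them with equal start and end (48 of the 53 members).

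Tests on the counts used edgeR 4.0.16 under R 4.3.3 (robust quasi-likelihood F tests, TMM, filterByExpr with a minimum count of 10 and total of 15) in 1 fit over 9 libraries, and p-values were adjusted over all 18113 genes within each of 3 comparisons. CPM are on TMM-scaled library sizes, as mean ± SD of 3 libraries. DESeq2 1.42.0 and limma 3.58.1 were alternatives. The procedure was tested on simulated data. Values are printed for members called in any comparison, for the 2 per role with the highest mean FPKM and for the 2 per role with the smallest p; other genes of the cycle were eligible as the 3 per list with the smallest p. Other members, overlapping genes and marker sums are given in short to account for all 53. Members and lists were chosen with earlier results of these data known. Promoter windows are from RefSeq. A group with no count was set to a floor of 3 counts in every library, which covers counting error only. None of the 9 library pairs within groups agreed within sampling noise.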

Additional observations from a re-analysis of the deposited data

How the results depend on the processing

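Of the 25 members called in treated versus control, 15 kept the call in all 17 alternatives, against 4 of 9 in treated versus model and 0 of 2 in model versus control. In treated versus control, omitting 1 library gave 16 to 22 members higher and 2 to 3 lower, and 1170 to 1631 genes higher and 999 to 1394 lower (999 without treated replicate 1). In treated versus model it gave 3 to 7 members higher (3 without model replicate 1), 1 to 2 lower, 525 to 915 genes higher and 357 to 745 lower. In model versus control it gave 0 to 5 members higher (0 when the library left out was replicate 2 or 3 of the control or model group, and 5 without model replicate 1), 0 to 1 lower (1 without treated replicate 1), 28 to 112 genes higher and 26 to 119 lower.

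DESeq2 called 8 members higher and 2 lower, and 450 genes higher and 416 lower, in model versus control, and 12 members higher, with 1428 genes higher and 1322 lower, in treated versus model. limma-voom called 1 member higher in model versus control. In that comparison 1 member was called lower without a filter, at a minimum of 1 CPM in 3 libraries and with only the 2 groups in the fit. On library totals alone, treated versus model gave 10 members higher and 1 lower, with 1638 genes higher and 408 lower. Treated versus control gave 30 members higher and 2 lower on that scaling, with 3021 genes higher and 819 lower. A change of at least 2-fold as a further condition left 55 genes higher in model versus control, 1 member lower, 531 genes higher and 219 lower in treated versus model, and 912 genes higher and 542 lower in treated versus control. The causes were not tested.

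With the replicate number as a block, model versus control gave 1 member higher, 61 genes higher and 59 lower. Correlations between the deviations of same-numbered libraries were -0.0814 to 0.0566, so no shared deviation by replicate number was seen. The labels do not say whether same-numbered libraries were collected or handled together.

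Uncalled log2 fold changes turned sign for Ccnd2 in treated versus model on library totals alone (0.055) and without model or treated replicate 2 (-0.29 to 0.097 without 1 library), for Cdk6 in treated versus model on library totals alone (0.13) and without model replicate 2 or 3 or treated replicate 2 or 3 (-0.20 to 0.078 without 1 library), and for E2f8 in model versus control without control replicate 1 (-0.20 to 0.23 without 1 library).

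Low counts limit the mitosis genes, whose control libraries together held 36 counts of Ccnb1 and 52 of Plk1, and the labels name no batch that could be tested.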

Other observations

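The split of estimated counts over transcripts was uneven between libraries for some members. In Mcm6, 1 protein-coding transcript of 2910 bases held 83.4, 92.4 and 67.1% of the counts in treated, 58.3, 44.2 and 39.9% in model and 46.4, 45.4 and 56.3% in control libraries. Treated libraries were above all others. In Birc5 a protein-coding transcript of 947 bases held 51.1, 70.5 and 76.7% in treated, 23.7, 39.9 and 45.1% in model and 13.6, 32.6 and 39.5% in control libraries, with the same separation. In Nusap1 a protein-coding transcript of 2960 bases held 100, 55.4 and 100% in treated, 10.4, 0 and 0% in model and 0% in each control library. Protein-coding transcripts held 66.5, 56.3 and 80.1% of the Cdt1 counts in treated, 0, 60.3 and 73.6% in model and 42.1, 0 and 0% in control libraries, so model libraries spanned both other groups. For Ccnb1 that share was 91.2, 46.7 and 44.0% in treated, 51.9, 65.7 and 70.6% in model and 0, 80.0 and 100% in control libraries, which had 24, 5 and 7 counts, and no order of the groups can be read from it. The protein-coding share of Mcm3 was 0% in control replicate 2, on 146 counts, and 76.5 to 97.6% in the other libraries. That of Aurkb was 0% in control replicate 3, on 14 counts, and 80.4 to 96.1% in the other libraries. In 37 of the 53 members protein-coding transcripts held at least 90% of the counts in each group. These shares come from the authors' estimation and were not tested.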
